A study of Mus musculus with 8 samples.

Results

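Hmga2, Rgs16, Serpinb10 and Htr5b are 4 genes whose messenger RNA was lowest in cultured ASZ001 cells, a line from a mouse basal cell carcinoma, when these were given either of 2 kinase inhibitors. They were taken by symbol from 24883 genes with usable symbols, and were chosen by the measured falls against DMSO, which were among the largest with both afatinib and UO126. All 4 are among the 12879 genes with enough counts to test. The cells carried a doxycycline-inducible vector, either empty or with c-FOS, which pairs with JUN proteins to form the transcription factor AP-1, and every sample received doxycycline for 24 h. The c-Fos cells were then kept for 6 h in DMSO, in 5 µM afatinib or in 10 µM UO126, whereas the label of the empty-vector cells names doxycycline alone and no vehicle. Each of the 4 groups has 2 libraries, 8 in all. Whether a group's 2 libraries came from separate cultures is not given by the labels, so the p-values measure only the spread between libraries, which may be technical. Fewer cells expressing a gene and less RNA per cell cannot be told apart in these bulk samples.

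The epidermal growth factor receptor passes its signal through RAS and RAF to the kinases MEK1 and MEK2, which activate ERK1 and ERK2. ERK in turn raises transcription through ETS and AP-1 factors, and among the genes it raises are brakes on the same pathway. Afatinib blocks the receptors of the EGFR family, and UO126 blocks MEK1 and MEK2. The 4 genes have separate roles. Hmga2 encodes an architectural chromatin protein that binds AT-rich DNA through AT-hooks, is common in embryonic and tumour cells, and is a classic target of the let-7 microRNAs. Rgs16 encodes a regulator of G protein signalling, which speeds GTP hydrolysis by Gi and Gq alpha subunits and so shortens receptor signals. Serpinb10, also called bomapin, belongs to the clade B serpins, protease inhibitors that mostly stay inside the cell, and is best known from myeloid cells. Htr5b encodes a serotonin receptor known mainly from the rodent brain.

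All 4 genes were found by symbol in RefSeq, but the promoter sequences used (assembly GRCm38.p6) held no entry for Htr5b. The promoters of the other 3 are shown because the members share their response to both inhibitors while their start regions can be read side by side. Each line gives the 250 bases before the annotated start, 5′ to 3′ on the strand of the gene. Capitals mark every match, on either strand, to 4 motifs bound by factors downstream of ERK or by c-Fos. These are the AP-1 motif in the loose form TGANTCA, where N is any base, the CRE motif TGACGTCA, and the ETS motifs CCGGAA and AGGAAG. None of these 4 motifs contains another. The Hmga2 promoter lies at chr10:120476470-120476719 on the minus strand, that of Rgs16 at chr1:153740103-153740352 on the plus strand, and that of Serpinb10 at chr1:107528753-107529002 on the plus strand.
Hmga2: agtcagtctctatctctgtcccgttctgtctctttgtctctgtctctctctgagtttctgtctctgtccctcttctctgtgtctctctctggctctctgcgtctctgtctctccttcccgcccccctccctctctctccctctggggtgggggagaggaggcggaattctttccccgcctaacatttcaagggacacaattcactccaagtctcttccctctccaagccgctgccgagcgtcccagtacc
Rgs16: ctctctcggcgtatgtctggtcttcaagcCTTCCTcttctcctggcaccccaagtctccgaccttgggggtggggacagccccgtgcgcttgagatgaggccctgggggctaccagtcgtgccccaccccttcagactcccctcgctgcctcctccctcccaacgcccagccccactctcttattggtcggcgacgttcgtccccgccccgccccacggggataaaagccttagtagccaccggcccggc
Serpinb10: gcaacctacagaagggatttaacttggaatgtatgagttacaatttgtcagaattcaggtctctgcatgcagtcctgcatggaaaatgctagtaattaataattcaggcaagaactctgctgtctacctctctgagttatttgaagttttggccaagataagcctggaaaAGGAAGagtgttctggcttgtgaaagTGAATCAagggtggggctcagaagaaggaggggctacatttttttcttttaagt

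The Serpinb10 stretch holds a match to the loose AP-1 form, TGAATCA, with A as its middle base, 54 to 48 bases before the start. It also holds an AGGAAG match 80 to 75 bases before the start. The Rgs16 stretch holds AGGAAG once, on the opposite strand (CTTCCT), 221 to 216 bases before the start. No match to the 4 motifs was found in the Hmga2 stretch. Over the 32851 promoters of the same length in the reference, 6.75% hold TGANTCA, 1.55% TGACGTCA, 12.03% CCGGAA and 29.5% AGGAAG. Base composition differed widely between the 3 stretches. Hmga2 is 70.8% C or T, with an unbroken run of 23 such bases, and 1.83% of all promoters have a run as long. Rgs16 is 66.4% G or C with 17 CG pairs, and Serpinb10 is 40.8% G or C with 0 CG pairs, against medians of 52.4% and 6 over all promoters. A match describes letters only and is no measure of binding.

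Levels are given as CPM, the deposited counts relative to a scaled library size. Fos checks the labels: its mean was 45.5 CPM with the empty vector, 1142 with c-Fos and DMSO, 1094 with afatinib and 844 with UO126. Fos was higher in c-Fos cells with DMSO by 4.65 on the log2 scale (edgeR quasi-likelihood test, adjusted p = 2.6e-12), was not called with afatinib (log2 change from DMSO -0.06, adjusted p = 0.57), and was lower with UO126 by a log2 change of -0.44 (adjusted p = 0.0015). Total counts per library lay between 17901974 and 23126049. All 12 keratinocyte and epithelial markers were measured, with a summed level of 19867 to 24174 CPM. Leukocyte markers summed to at most 0.507 CPM in any library, with Tyrobp at 0 in all. Fibroblast markers summed to between 5.06 and 10.6 CPM with Lum and Thy1 at 0, and 4 of 7 had enough counts to test. Endothelial markers summed to between 55.3 and 70.9 CPM with Kdr at 0, and melanocyte markers to between 6.90 and 11.4 CPM with Tyr at 0. In both of these lists only 1 of 4 markers had enough counts to test. Of 8 neuronal markers Snap25, Nefl and Gad1 were at 0 while Tubb3 and Map2 had enough counts to test. The neuronal markers summed to 138 to 143 CPM with the empty vector, 348 to 362 with c-Fos and DMSO, 314 to 317 with afatinib and 426 to 444 with UO126, and their part in the results was not tested.

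Hmga2 was at 6.04 and 4.81 CPM in the 2 empty-vector libraries and at 11.02 and 12.8 CPM in c-Fos cells with DMSO. With afatinib it was at 1.14 and 1.35 CPM, from 23.5 and 29.5 counts, and with UO126 at 1.88 and 1.75 CPM, from 42 and 38 counts. The DMSO libraries were thus the highest and the afatinib libraries the lowest, and no 2 groups overlapped. The mean with DMSO was 11.9 ± 1.27 CPM (SD, n = 2). Afatinib left 10.5% of it and UO126 15.2%.

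Rgs16 had the widest span of the 4 genes. It was at 3.90 and 3.74 CPM with the empty vector, at 14.97 and 16.7 CPM with c-Fos and DMSO, at 0.657 and 0.642 CPM with afatinib, from 13.5 and 14 counts, and at 3.64 and 3.55 CPM with UO126. The UO126 libraries lay just under the empty-vector libraries, and both afatinib libraries lay far under every other. Of the DMSO mean, 15.8 ± 1.25 CPM (SD, n = 2), afatinib left 4.10% and UO126 22.7%.

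Serpinb10 was at 6.88 and 8.01 CPM with the empty vector and at 13.3 and 15.1 CPM with c-Fos and DMSO. It was at 1.51 and 1.83 CPM with afatinib, from 31 and 40 counts, and at 2.92 and 2.72 CPM with UO126. The 4 groups kept the same order as for Hmga2, again with no overlap. Afatinib left 11.8% of the DMSO mean of 14.2 ± 1.24 CPM (SD, n = 2), and UO126 left 19.9%.

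Htr5b was at 5.17 and 5.39 CPM with the empty vector and at 6.64 and 6.51 CPM with c-Fos and DMSO, a smaller step than in the other 3 genes. With afatinib it was at 1.05 and 1.12 CPM, from 21.5 and 24.5 counts, and with UO126 at 0.871 and 0.646 CPM, from 19.5 and 14 counts. It was the member whose lowest libraries were those with UO126. Of its DMSO mean, 6.57 ± 0.0947 CPM (SD, n = 2), afatinib left 16.5% and UO126 11.5%.

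**Figure D1:**
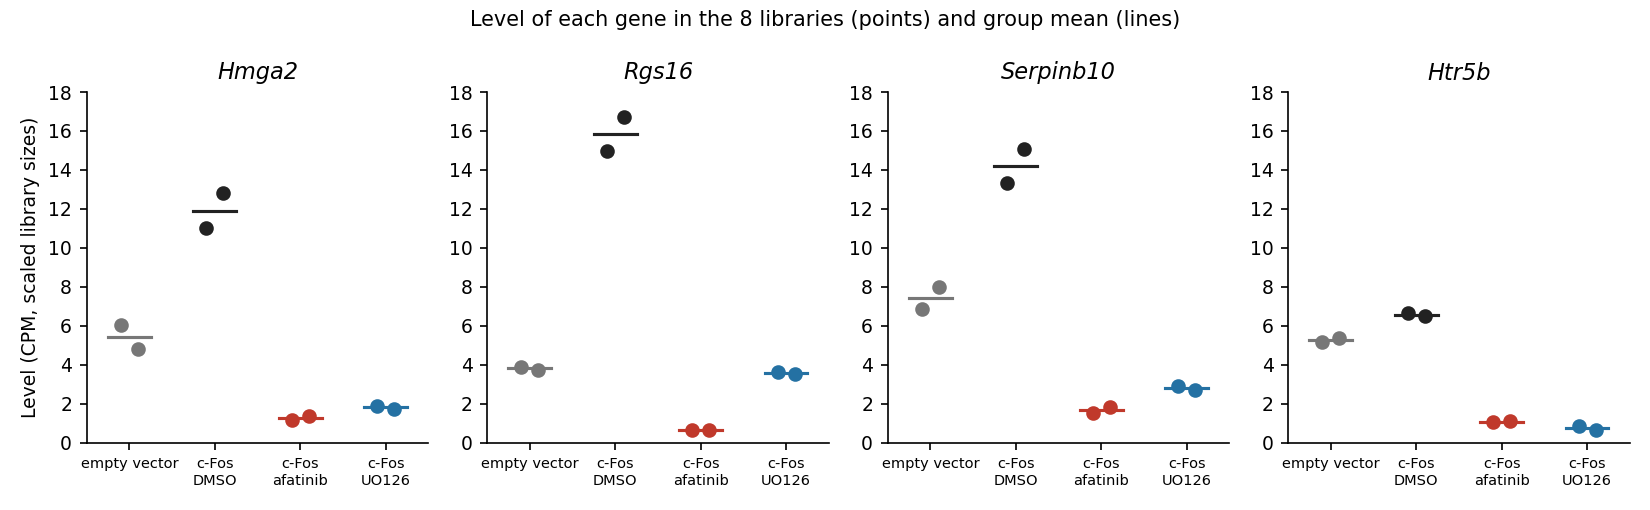
Level of each gene in CPM on a linear axis, by group, with 1 point per library and a line at the mean of the 2 libraries. All 4 genes are lowest in the inhibitor groups, and Rgs16 with UO126 (3.64 and 3.55 CPM) sits beside its empty-vector libraries (3.90 and 3.74 CPM).

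The falls against DMSO chose the 4 genes and are given here as a description, with no test. On the log2 scale, with standard errors, afatinib changed Hmga2 by -3.22 ± 0.189, Rgs16 by -4.57 ± 0.178, Serpinb10 by -3.07 ± 0.165 and Htr5b by -2.59 ± 0.193. UO126 changed them by -2.71 ± 0.176, -2.13 ± 0.130, -2.32 ± 0.149 and -3.08 ± 0.205 in the same order. Of all genes tested, 21.5% were called lower with afatinib and 14.7% with UO126 (adjusted p under 0.05). Ranked over all genes by the smaller of the 2 falls, Hmga2 stood at place 6, Htr5b at 9, Serpinb10 at 14 and Rgs16 at 17. Among the 1511 genes called lower with both inhibitors and at 5 CPM or more with DMSO, they filled places 4 to 7. Just above them stood Etv5, Tcf7 and the predicted gene Gm14005, with a smaller fall of -4.33, -3.07 and -2.93, and just below stood Lgr6 with -2.0001 and Dusp6 with -1.98.

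The next comparison sets c-Fos cells with DMSO against the empty vector, and changes in it are called changes with c-Fos here and below. The label of the empty-vector cells names no vehicle, so c-Fos and DMSO cannot be told apart in it. These tests use the empty-vector libraries, which the choice of genes did not, but they share the DMSO libraries with it, so they are not independent of that choice. High values in the DMSO libraries favour both the choice of a gene and a call of higher here. Hmga2, Rgs16 and Serpinb10 rose with c-Fos. Rgs16 rose 4.15-fold (log2 2.05 ± 0.129, adjusted p = 3.8e-08), Hmga2 2.20-fold (1.13 ± 0.147, adjusted p = 4.1e-05) and Serpinb10 1.90-fold (0.93 ± 0.129, adjusted p = 6.7e-05). Htr5b was not called: its log2 difference was 0.31 ± 0.147, with a 95% interval from -0.006 to 0.627 and an adjusted p of 0.106. Of all genes tested, 21.5% were called higher in this comparison, against 3 of these 4.

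The inhibited c-Fos cells were then set against the empty vector, to see where the 4 genes ended relative to cells without the insert. These tests share the inhibitor libraries with the choice of genes and are likewise not independent of it. Low values in the inhibitor libraries favour both the choice of a gene and a call of lower here. With afatinib all 4 genes were below the empty vector, where 23.4% of all genes were called lower. Rgs16 was at 17.0% of the empty-vector mean (log2 -2.52 ± 0.219, adjusted p = 7.0e-07), Htr5b at 20.5% (-2.28 ± 0.195, adjusted p = 6.2e-07), Serpinb10 at 22.4% (-2.14 ± 0.176, adjusted p = 4.0e-07) and Hmga2 at 23.0% (-2.09 ± 0.207, adjusted p = 2.4e-06). With UO126, Htr5b was at 14.4% (log2 -2.77 ± 0.207, adjusted p = 2.0e-07), Hmga2 at 33.5% (-1.58 ± 0.191, adjusted p = 2.0e-05) and Serpinb10 at 37.9% (-1.39 ± 0.158, adjusted p = 1.2e-05), against 19.4% of all genes called lower. Rgs16 with UO126 was at 94.2% of the empty-vector mean and was not called (log2 -0.08, 95% interval -0.415 to 0.250, adjusted p = 0.71).

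**Figure D2:**
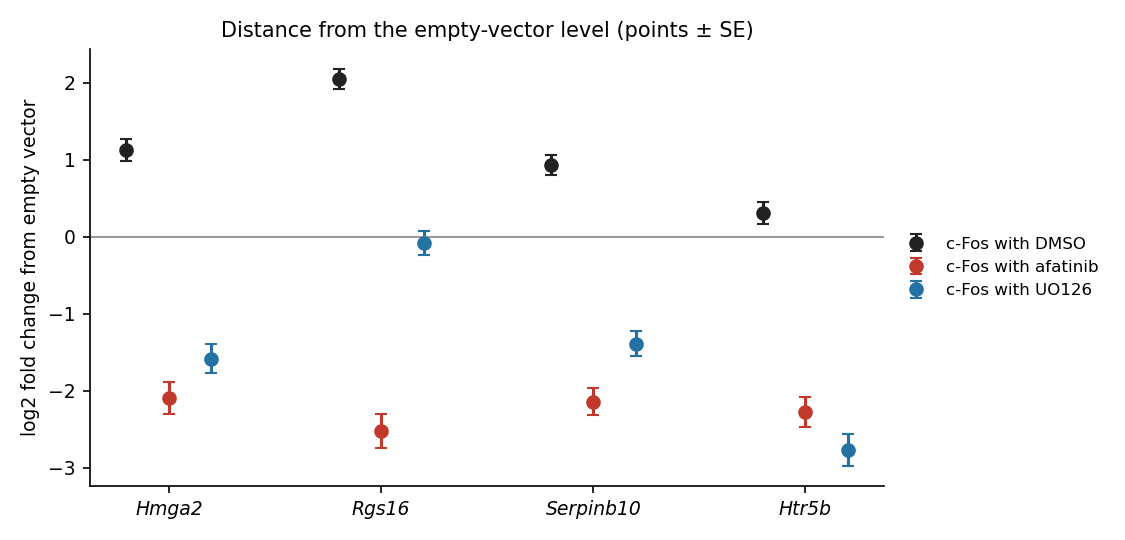
Log2 fold change of each gene from the empty vector in the 3 c-Fos groups, points with standard errors, the grey line marking the empty-vector level. Afatinib points lie between -2.52 and -2.09, whereas UO126 points run from -2.77 for Htr5b to -0.08 for Rgs16.

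The 2 inhibitors were also compared directly, each at its single dose and at the same time. Both inhibitor groups took part in the choice of genes, so the difference between them is less tied to it than the falls, but is not independent of it. Rgs16 was lower with afatinib than with UO126 by a factor of 5.54 (log2 -2.44 ± 0.221, adjusted p = 1.5e-05). That difference was the seventh lowest of the 12879 genes. Serpinb10 was also lower with afatinib (log2 -0.76 ± 0.207, adjusted p = 0.027). This call was lost without either afatinib library, without replicate 1 of UO126, with the DESeq2 Wald test and in a fit of only the 4 libraries compared, where the adjusted p rose to between 0.0588 and 0.176. Hmga2 was not called (log2 -0.51, 95% interval -1.05 to 0.035, adjusted p = 0.209), nor was Htr5b (0.49, 95% interval -0.114 to 1.095, adjusted p = 0.317), so differences within those intervals remain possible. Over all genes, 7.14% were called lower and 7.14% higher with afatinib.

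**Figure D3:**
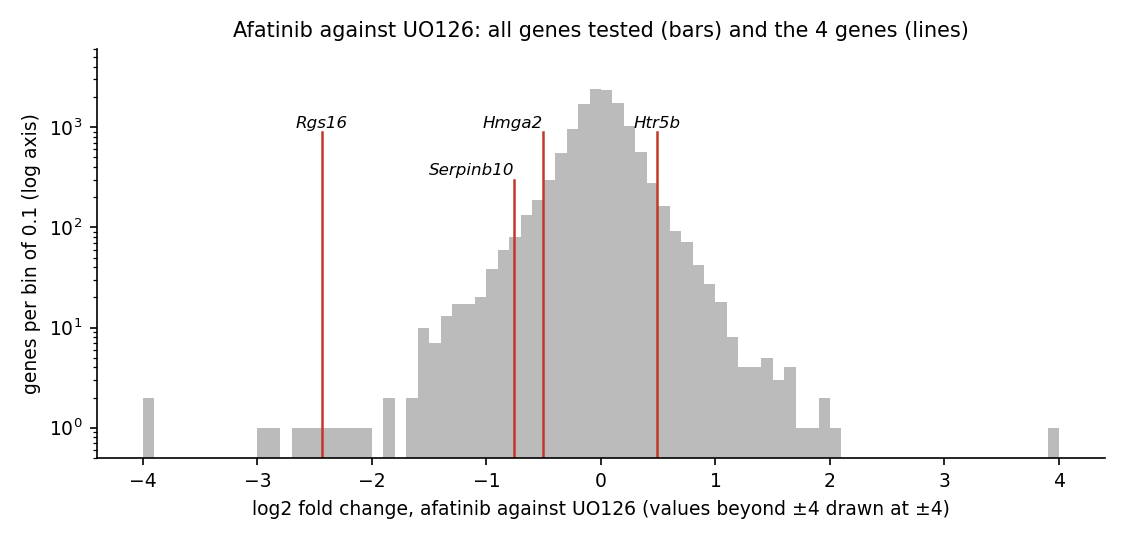
Histogram of the log2 fold change of afatinib against UO126 over the 12879 genes tested, with a logarithmic count axis and a line at each of the 4 genes. Rgs16 at -2.44 lies in the far left tail, and Hmga2, Serpinb10 and Htr5b lie between -0.76 and 0.49.

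Per kilobase of the transcript length in the file, the order of the 4 genes changed between groups. With the empty vector the order of mean levels was Htr5b at 2.64 ± 0.077 CPM per kb, Serpinb10 at 2.14 ± 0.229, Rgs16 at 1.64 ± 0.048 and Hmga2 at 1.46 ± 0.235 (SD, n = 2 throughout). The last 2 differed by less than the larger SD. With c-Fos and DMSO, Rgs16 led at 6.81 ± 0.537 CPM per kb, followed by Serpinb10 at 4.08 ± 0.356, Htr5b at 3.29 ± 0.047 and Hmga2 at 3.21 ± 0.342, of which the last 2 again lay within their spread. With afatinib Rgs16 was lowest at 0.279 ± 0.0047 CPM per kb, below Hmga2 at 0.336 ± 0.040, and the highest pair, Htr5b at 0.542 ± 0.027 and Serpinb10 at 0.480 ± 0.066, differed by less than the larger SD. With UO126 Rgs16 was highest again at 1.54 ± 0.027 CPM per kb, before Serpinb10 at 0.811 ± 0.041, Hmga2 at 0.489 ± 0.023 and Htr5b at 0.379 ± 0.080. The members' profiles over the 8 libraries were compared by the root mean square distance between log2 CPM values centred on each gene's mean. Hmga2 and Serpinb10 were nearest, at 0.192, and Rgs16 and Htr5b farthest apart, at 1.17.

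Among all named genes tested, the profile nearest to Hmga2 by that distance was Serpinb10, followed by Dusp6 at 0.347 and Spry4 at 0.395. Nearest to Serpinb10 were Hmga2, Dusp6 at 0.244 and Nlrp10 at 0.384. Dusp6, a phosphatase that switches off ERK, had mean levels of 48.6, 59.0, 8.90 and 14.99 CPM in the empty-vector, DMSO, afatinib and UO126 groups. Spry4, a Sprouty inhibitor of receptor kinase signalling, reached at most 18 counts in a library. Nearest to Rgs16 were the small MAF factor gene Maff at 0.637, its map neighbour Rgs8 at 0.650 and Trabd2b at 0.670. Maff had 7.97, 21.2, 3.28 and 6.77 CPM in the same group order. Nearest to Htr5b were Spn at 0.379, which encodes the sialoglycoprotein CD43, the sialyltransferase gene St6gal1 at 0.430 and Hmga2 at 0.483. St6gal1 had 5.76, 3.77, 0.636 and 0.592 CPM. These distances are descriptions over 8 libraries in 4 groups, which all genes share. With Pearson correlation as the measure, none of the 3 nearest genes was the same for any member.

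Most tested genes known as ERK outputs fell with each inhibitor. Of 22 listed, 20 were tested. Against DMSO 16 of them fell and 1 rose with afatinib (median log2 change -1.18), and 14 fell and 2 rose with UO126 (median -0.84), while the median over all genes lay within 0.03 of 0 in both comparisons. Of all genes tested, 21.5% were called lower and 21.2% higher with afatinib, and 14.7% lower and 13.9% higher with UO126. The 1 that rose with afatinib became 2 without either UO126 library, with no low-count filter, with the DESeq2 Wald test and in the fit of only the 4 libraries compared. With c-Fos and DMSO against the empty vector 10 rose and 5 fell (median 0.25), or 3 fell without replicate 1 of DMSO, where 21.5% of all genes were called higher and 20.7% lower. Etv5, an ETS factor of the PEA3 group, changed by -4.67 ± 0.159 with afatinib (adjusted p = 3.9e-10) and by -4.33 ± 0.151 with UO126 (adjusted p = 2.7e-09). Dusp6 changed by -2.73 and -1.98, and Fosl1, a FOS relative induced through ERK, by -2.01 and -1.17. Epha4 rose with both, by 1.04 and 0.75. Egr1, an immediate-early gene, rose with UO126 by 1.07 (adjusted p = 0.00071) and was not called with afatinib (0.35, adjusted p = 0.083).

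Relatives of Hmga2 were compared through a list of 15 genes of the HMGA proteins and the let-7 axis, of which 10 were tested. Afatinib against DMSO gave 3 higher and 4 lower (median -0.02), and UO126 gave 1 higher and 4 lower (median -0.07). Over all genes 21.2% were called higher and 21.5% lower with afatinib, and 13.9% and 14.7% with UO126. The higher counts of this list were thus near the share of all genes, and the lower counts, 4 of 10 with each inhibitor, were above it. With the DESeq2 Wald test afatinib gave 2 higher and 3 lower, and in the fit of only the 4 libraries compared UO126 gave 3 lower. The afatinib counts also fell without replicate 2 of the empty vector or without any 1 library of DMSO or of afatinib. Those for UO126 changed without either DMSO library or without replicate 1 of UO126. Hmga1, the other AT-hook gene of the family, rose with c-Fos by 1.49 (adjusted p = 5.0e-08) and fell with afatinib by 0.49 and with UO126 by 0.73. Igf2bp3, an RNA-binding protein regulated by let-7, fell with afatinib by 0.82 (adjusted p = 7.5e-07) and with UO126 by 0.50 (adjusted p = 0.00011). Arid3a rose with afatinib by 0.67 and was not called with UO126 (0.34, adjusted p = 0.093). Lin28a, which blocks let-7 processing, had 0 counts in all 8 libraries, and its paralogue Lin28b was measured at 15.1 to 26.5 CPM in the group means.

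Of 21 other genes of the RGS family, 8 were tested. With c-Fos 6 rose and 1 fell (median 0.55), beside 21.5% and 20.7% of all genes, and 4 rose without replicate 1 of the empty vector or of DMSO. Against DMSO 5 fell with afatinib (median -0.69, beside 21.5% of all genes), or 4 with the DESeq2 Wald test. Where at least 5 CPM in 2 libraries were required, 3 of the 5 then tested fell. Fewer also fell without replicate 2 of DMSO or replicate 1 of afatinib. With UO126 4 fell (median -0.27, beside 14.7% of all genes), a count that dropped to 1 with the DESeq2 Wald test. It was 3 with no low-count filter and with at least 5 CPM in 2 libraries. The fit of only the 4 libraries compared and a fit with replicate number as a block also gave 3. Leaving out any 1 library likewise gave fewer than 4. Rgs12 fell with afatinib by 0.81 (adjusted p = 1.4e-06) and with UO126 by 0.75 (adjusted p = 7.9e-06). Rgs20 rose with c-Fos by 3.41 and fell with afatinib by 0.81 (adjusted p = 6.5e-05). The 13 G protein alpha subunits, the proteins on which RGS proteins act, were all tested. With afatinib 4 of them rose (median 0.18, beside 21.2% of all genes), with a range of 2 under the DESeq2 Wald test to 7 in the fit of only the 4 libraries compared or without either UO126 library, and Gna13 (0.38) and Gnao1 (0.42) kept their calls under every alternative. With UO126 the quasi-likelihood test called 0 of 13, DESeq2 also 0, and 0 had an unadjusted p under 0.05, whereas 1 was called without either UO126 library and 2 with no low-count filter.

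Of 26 other clade B serpins, 9 were tested. Afatinib against DMSO gave 2 higher and 2 lower (median -0.16), and UO126 gave 1 higher and 2 lower (median 0.07). These counts were near the shares of all genes, 21.2% higher and 21.5% lower with afatinib and 13.9% and 14.7% with UO126. The 2 lower with afatinib became 1 without its replicate 2, the 2 lower with UO126 became 1 without either DMSO library, and the 1 higher with UO126 became 0 without replicate 2 of DMSO. Where at least 5 CPM in 2 libraries were required, only 5 were tested, of which 1 was higher with afatinib and 0 with UO126. Serpinb2, which encodes plasminogen activator inhibitor 2, moved most: its means were 6.63, 18.2, 3.48 and 8.71 CPM in the empty-vector, DMSO, afatinib and UO126 groups. It fell with afatinib by 2.38 (adjusted p = 9.4e-08) and with UO126 by 1.05 (adjusted p = 9.0e-05). Serpinb1a, an inhibitor of neutrophil proteases, rose with afatinib by 0.73 and with UO126 by 0.79, the second call being lost without replicate 2 of DMSO.

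Of 19 other genes for serotonin receptors, synthesis, transport and breakdown, 4 were tested. With afatinib 3 rose, beside 21.2% of all genes, and with UO126 1 rose, beside 13.9% (medians 0.72 and 0.29). Maoa, the monoamine oxidase that degrades serotonin, fell with c-Fos by 1.05 and rose with afatinib by 0.94 (adjusted p = 1.0e-06) and with UO126 by 0.42 (adjusted p = 0.0017). Slc6a4, the serotonin transporter, rose with c-Fos by 1.86 and again with afatinib by 0.51 (adjusted p = 2.0e-04), but was not called with UO126 (0.16, adjusted p = 0.15). Htr1d went from 0.238 to 0.800 CPM with afatinib, a call lost with the DESeq2 Wald test, without replicate 1 of DMSO and without replicate 2 of afatinib. The receptor genes Htr1a, Htr2c, Htr3a, Htr3b, Htr5a and Htr7 had 0 counts in all 8 libraries, Htr5a being the paralogue of Htr5b.

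**Figure D4:**
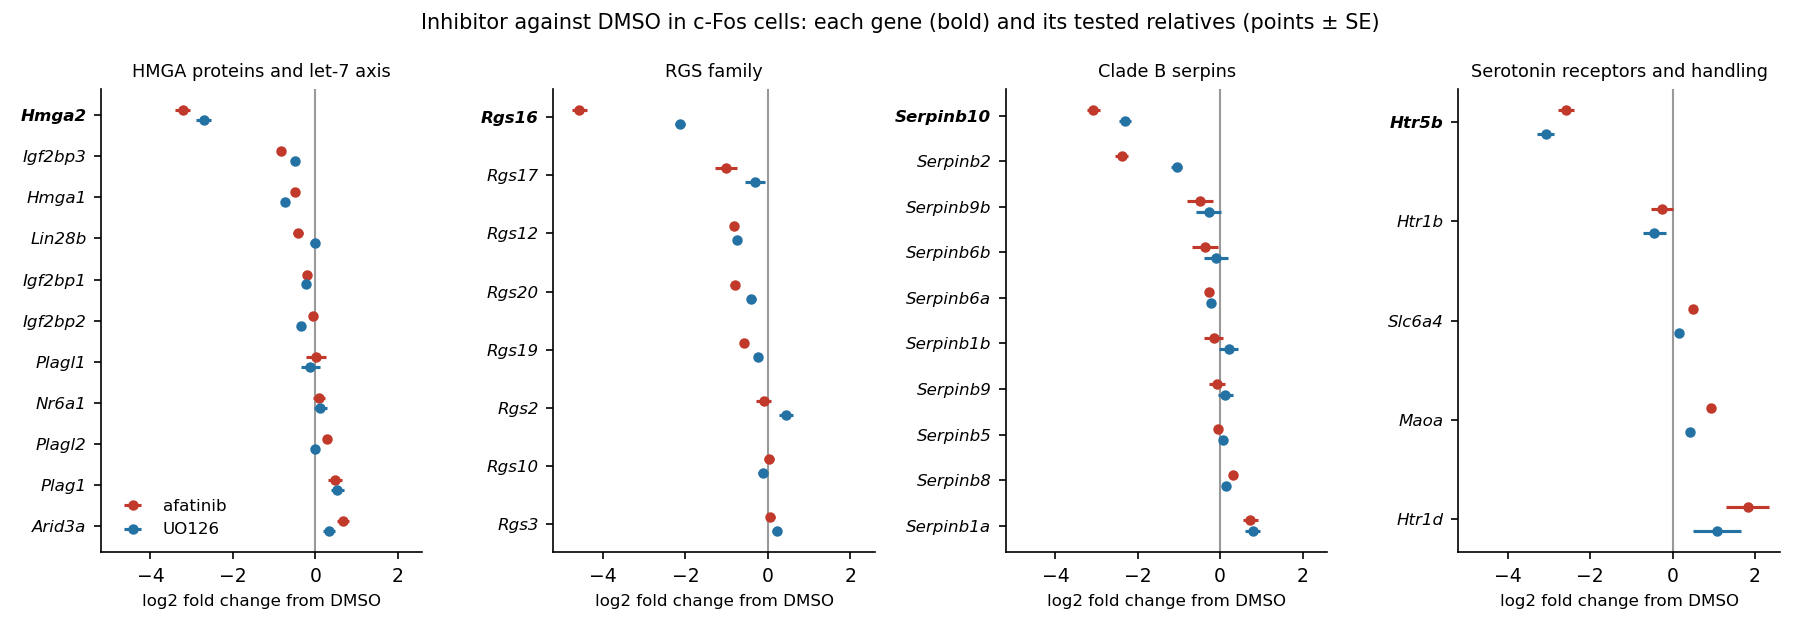
Log2 fold change from DMSO with afatinib and with UO126, points with standard errors, for each of the 4 genes (bold) and its tested relatives except Rgs8. The bold genes lie between -4.57 and -2.13, and among the relatives drawn Serpinb2 comes nearest, at -2.38 and -1.05. Rgs8, not drawn, changed by -1.70 with UO126 and had 0 counts in both afatinib libraries.

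The genes next to each member were examined to see whether the falls extended along the chromosome. Of the 3 nearest protein-coding genes on each side, taken by their order in the RefSeq table, Serpinb2 and Rgs8 had the largest falls. The DMSO libraries held 17 and 9.5 counts of Rgs8, the UO126 libraries 5.5 and 4.5, and both afatinib libraries 0. Taking a floor of 3 counts per library, it was at least 5.17-fold lower with afatinib. Dhx9, also beside Rgs16, was called lower with UO126 (log2 -0.17, adjusted p = 0.036), but 11 of 16 alternatives ended that call, among them leaving out any library other than replicate 1 of UO126. Serpinb8, on the other side of Serpinb10, rose with afatinib by 0.32 (adjusted p = 0.0045) and was not called with UO126 (0.14, adjusted p = 0.19). Beside Hmga2, Llph fell with afatinib by 0.64 (adjusted p = 0.00013) and with UO126 by 0.31 (adjusted p = 0.024), the second call being lost without replicate 2 of DMSO or of UO126, with the DESeq2 Wald test and in the fit of only the 4 libraries compared. Msrb3, Lemd3 and Tmbim4 were not called with either inhibitor. Beside Htr5b, Ddx18 fell by 0.88 with afatinib (adjusted p = 2.9e-06) and by 0.44 with UO126 (adjusted p = 0.0014), and Insig2 rose with afatinib by 0.43 (adjusted p = 0.00058) and with UO126 by 0.30 (adjusted p = 0.0099). Ccdc93 rose with afatinib by 0.24 (adjusted p = 0.016) and with UO126 by 0.33 (adjusted p = 0.0036). The UO126 call of Insig2 was lost without either DMSO library, and the afatinib call of Ccdc93 without replicate 2 of DMSO or replicate 1 of afatinib.

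**Figure D5:**
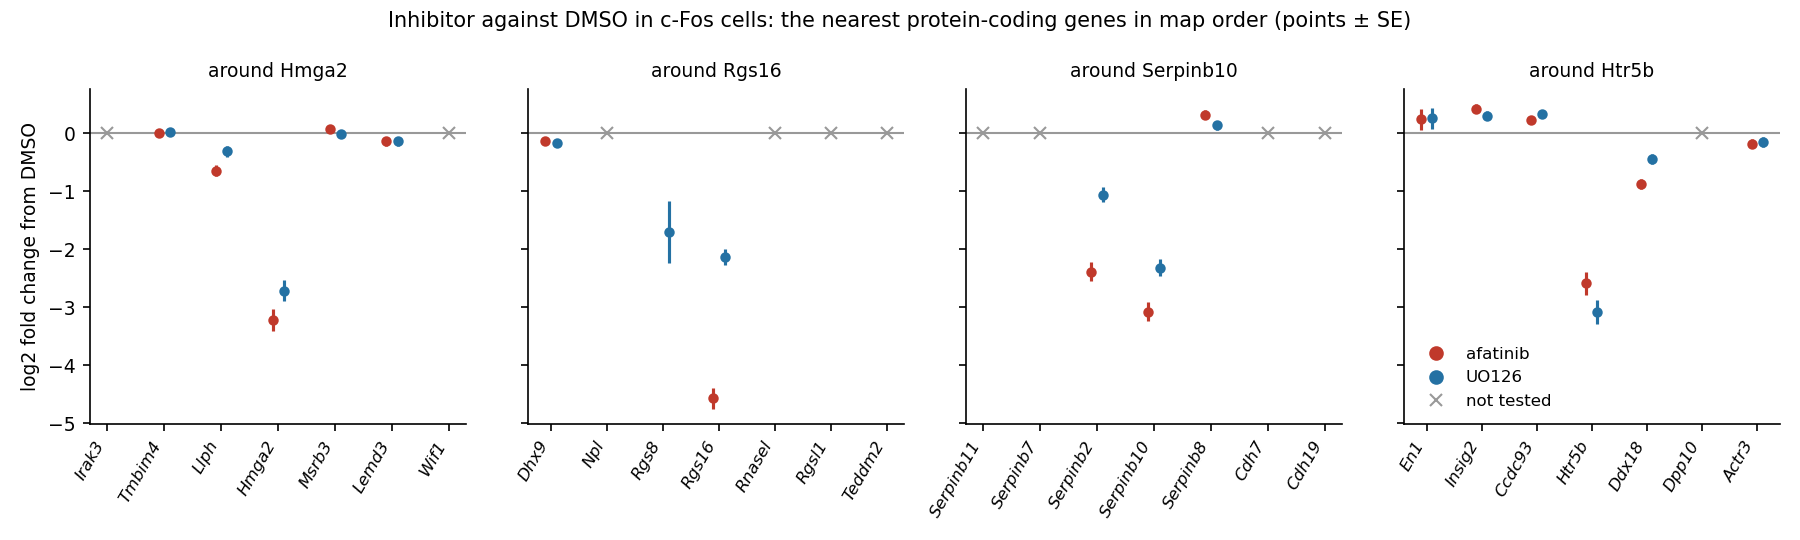
Log2 fold change from DMSO of each of the 4 genes and its 3 nearest protein-coding genes on each side in map order, points with standard errors, crosses marking genes with too few counts to test. Rgs8 with afatinib has no point because both libraries held 0 counts, and apart from Rgs8 and Serpinb2 the tested neighbours lie between -0.88 and 0.43.

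Some reads could belong to more than 1 gene. In the GENCODE M21 annotation of GRCm38, Serpinb10 and Serpinb2 lie on the same strand and share 291 of the 3490 exon bases of Serpinb10, through 2 of 4 Serpinb2 transcripts, so their counts may not be fully separate. Antisense genes overlap 140 of 6772 exon bases of Hmga2 (1700006J14Rik) and 236 of 2339 of Rgs16 (Gm28513), and the library kit does not mark strand. Htr5b had no exon overlap. The processed copy Hmga2-ps1 had between 0.5 and 14.5 counts per library, and adding these to Hmga2 gave log2 changes from DMSO of -3.11 with afatinib and -2.66 with UO126.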

How the data were processed

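The RNeasy kit served for RNA extraction and the unstranded Illumina TruSeq RNA kit for the libraries, per the labels' protocols. Per the series design text, the authors aligned reads with TopHat and counted them with HOMER, and the submitters' processing notes also name DESeq2 and mm9. The deposited values are expected counts, not normalized, in multiples of 0.5. Of 24909 entries, 26 with symbols turned into dates (0.218% to 0.246% of a library) were left out. Rn45s took 1.62% to 4.08%.

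Counts were rounded and fitted in R 4.3.3 with edgeR 4.0.16 (TMM scaling, robust quasi-likelihood fit of all 8 libraries, 4 residual degrees of freedom), after filterByExpr (count 10, total 15). The common biological coefficient of variation, 0.0596, measures the spread between libraries. All tests are two-sided, with Benjamini-Hochberg adjustment over 12879 genes in each comparison and calls under 0.05. The procedure was tested on simulated data. The chi-square per degree of freedom between libraries of a group was 4.85 to 25.1, so none was counted as a duplicate. DESeq2 1.42.0 served as an alternative.

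The members, gene lists and tests were chosen with earlier results of these data known. The text names the members, Fos, the 3 genes nearest each in profile, up to 4 called genes per list, the 3 nearest genes on each side, and genes ranked next to the members. Coordinates are GRCm38.p6, not the authors' mm9.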

Additional observations from a re-analysis of the deposited data

How the results depend on the processing

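Each member's log2 fold change was recomputed with the Wald test and the size factors of DESeq2, without the low-count filter, with at least 5 CPM in 2 libraries, only the 4 libraries compared, a prior count of 2, a replicate block and without each library in turn. Adding Hmga2-ps1 to Hmga2 was chosen after seeing the data. No fold change reversed. For Serpinb10, afatinib against UO126 gave -0.75 with the Wald test (adjusted p = 0.0588), -0.76 with only 4 libraries (adjusted p = 0.0672) and -0.90 to -0.62 without 1 library (highest adjusted p = 0.176). There the number of members called lower was 1 in place of 2 under these settings, and 1 to 2 without 1 library. With a prior count of 2, Rgs16 in afatinib against DMSO was -4.39. Without 1 library, Rgs16 ran from -4.64 to -4.47 with afatinib and from -2.21 to -2.04 with UO126 against DMSO, Serpinb10 from -3.20 to -2.92 with afatinib, and Htr5b from -3.32 to -2.86 with UO126. The cause was not tested. The lowest group of each gene rests on 13.5 to 40 counts per library, which limits small differences between the inhibitors.

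Replicate numbers do not pair the samples: deviations of same-numbered libraries correlated between -0.210 and 0.120 over the group pairs. With the replicate block, Serpinb10 in afatinib against UO126 was -0.76 (adjusted p = 0.0293), and the block changed no call of any member.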
